A study of Mus musculus with 3 samples.

Results

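The proteasome genes of tumor-infiltrating lymphocytes (TILs) were followed across natural killer (NK) cells, CD8 T cells and regulatory T cells (Tregs) of one mouse tumor model. Members were defined by symbol, a rule set with earlier results of these data known. They are all 50 of the 32285 genes in the count matrices whose symbol runs from *Psma* to *Psmg* followed by a number. They comprise 8 alpha and 7 constitutive beta subunits of the 20S core, 5 immunoproteasome genes, 1 thymus-specific beta subunit, 6 ATPases and 11 non-ATPases of the 19S cap, 3 other activators or inhibitors, 7 assembly chaperones and 2 further genes that share the symbol. The last pair are *Psmc3ip*, which encodes a protein of meiotic recombination and no proteasome subunit, and *Psme2b*, a retrogene copy of *Psme2*. All samples came from WT C57BL/6 Kaede mice, whose transgenic Kaede protein changes color from green to red under violet light, with subcutaneous tumors of the MC38-Ova colorectal line given an isotype control. Tumors were photoconverted on day 13 and taken on day 15, so that 48 h later Kaede-red (KR+) cells had been in the tumor at conversion and Kaede-green (KG+) cells had entered since. Live CD45+ TER119- Kaede+ cells without the CD11b+ NK1.1- fraction were sorted, and single-cell RNA was counted as unique molecular identifiers (UMIs) in 2 KG+ libraries, Kaede-green 1 and Kaede-green 2, and in 1 KR+ library, Kaede-red. The sources used here do not say how many mice were pooled in a library. With the library as a block, p-values measure the spread of within-library differences over 3 libraries, which are not replicates of 1 color. The paper describes dividing the sorted TILs by color. A KR+ and a KG+ library may therefore come from the same tumors, and the 3 libraries may not be independent.

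The proteasome is the protease that degrades ubiquitin-tagged proteins: a barrel of alpha and beta rings holds the active sites, and the 19S cap recognizes, unfolds and feeds in the substrate. Interferon-γ induces replacement catalytic subunits, encoded by *Psmb8*, *Psmb9* and *Psmb10*, which take the places of *Psmb5*, *Psmb6* and *Psmb7* in newly built barrels, together with the PA28 activator subunits *Psme1* and *Psme2*. This immunoproteasome produces many of the peptides that the Tap1–Tap2 transporter delivers to MHC class I molecules, and lymphocytes are known to carry it without stimulation.

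Cells were typed by raw UMIs of defining genes. NK cells had at least 1 *Ncr1* UMI and at most 1 *Cd3e* UMI, CD8 T cells had at least 2 *Cd3e* UMIs with *Cd8a* and *Cd8b1*, and Tregs had at least 2 *Cd3e* UMIs with *Foxp3*. Of 31943 cells that passed the filters (34781 deposited), 19961 were of these types, with 2608, 2676 and 3175 NK cells, 2353, 3262 and 4085 CD8 T cells and 388, 709 and 705 Tregs in Kaede-green 1, Kaede-green 2 and Kaede-red, the order used throughout. The libraries held 87193225, 129438292 and 175848894 UMIs, and any 2 of them shared between 20 and 36 cell barcodes. Over the whole types, the marker lists were highest in the types they are named for. NK genes summed to between 5003 and 11429 counts per 1000000 UMIs (CPM) in NK cells and at most 1759 CPM in CD8 T cells and Tregs. T cell genes summed to between 2966 and 4050 CPM in CD8 T cells and Tregs and at most 182 CPM in NK cells. CD8 genes summed to between 1413 and 1767 CPM in CD8 T cells and at most 47.1 CPM in the other types. Treg genes summed to between 3444 and 3945 CPM in Tregs and at most 597 CPM in the other types. These lists include genes that defined the cells: *Ncr1*, *Cd3e*, *Foxp3*, and *Cd8a* and *Cd8b1*, which are the whole CD8 list. The order of the CD8 list was thus set by the typing and that of the others in part, so it is no separate check. Genes of B cells and of tumor or stroma stayed at or under 20.3 CPM in each type, myeloid genes reached 65.4 CPM in NK cells, and mast cell genes reached 26 CPM in CD8 T cells. The part of these genes in the results was not tested. A level below is the CPM of the UMIs summed over the cells of one type in one library. Where levels are said not to overlap, this describes the 3 libraries only. The share of all genes without overlap is not given here, so it adds no support beyond the tests. A fold change is the log2 difference, with its SE, in edgeR's quasi-likelihood fit with the library as a block, and adjusted p-values are Benjamini-Hochberg values over all genes tested.

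The immunoproteasome genes lie in 3 places (coordinates in GRCm38). *Psmb9* (ENSMUSG00000096727, chr17:34181987-34187764, minus strand) and *Psmb8* (ENSMUSG00000024338, chr17:34197721-34201454, plus strand) flank *Tap1* (chr17:34187553-34197225, plus strand) in the MHC, and the first bases of *Psmb9* and *Tap1* overlap on opposite strands. *Psme1* (ENSMUSG00000022216, chr14:55578123-55581529, plus strand) and *Psme2* (ENSMUSG00000079197, chr14:55587441-55591113, minus strand) are near neighbors, while *Psmb10* (ENSMUSG00000031897, chr8:105935735-105938444, minus strand) stands apart. The promoters of the 4 clustered genes are shown because the levels of most of them differ between cell types below. Each runs from 250 bases before to 50 bases after the start site, as given by RefSeq on GRCm38.p6, in lower case with a match to the letters of either of 2 interferon-response motifs in capitals. The windows are chr17:34187281-34187580 (minus strand) for *Psmb9*, chr17:34197945-34198244 (plus) for *Psmb8*, chr14:55578244-55578543 (plus) for *Psme1* and chr14:55591052-55591351 (minus) for *Psme2*. Those of *Psmb9*, *Psmb8* and *Psme1* lie inside the gene spans given above, which begin upstream of the RefSeq start sites. Bases before these spans were therefore not searched. A further RefSeq window of *Psme2*, chr14:55590972-55591271 (minus), held neither motif and is not printed.
Psmb9: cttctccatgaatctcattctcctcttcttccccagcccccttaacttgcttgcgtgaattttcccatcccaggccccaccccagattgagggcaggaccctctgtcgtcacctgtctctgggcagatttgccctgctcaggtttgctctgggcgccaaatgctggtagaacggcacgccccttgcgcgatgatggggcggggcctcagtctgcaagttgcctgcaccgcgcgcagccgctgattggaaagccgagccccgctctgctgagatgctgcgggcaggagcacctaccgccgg
Psmb8: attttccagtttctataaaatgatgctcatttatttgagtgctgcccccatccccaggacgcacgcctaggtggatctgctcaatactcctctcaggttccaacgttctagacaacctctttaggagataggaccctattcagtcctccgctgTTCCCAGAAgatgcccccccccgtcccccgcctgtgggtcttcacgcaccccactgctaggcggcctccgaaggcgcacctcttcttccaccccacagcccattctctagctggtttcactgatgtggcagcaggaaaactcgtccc
Psme1: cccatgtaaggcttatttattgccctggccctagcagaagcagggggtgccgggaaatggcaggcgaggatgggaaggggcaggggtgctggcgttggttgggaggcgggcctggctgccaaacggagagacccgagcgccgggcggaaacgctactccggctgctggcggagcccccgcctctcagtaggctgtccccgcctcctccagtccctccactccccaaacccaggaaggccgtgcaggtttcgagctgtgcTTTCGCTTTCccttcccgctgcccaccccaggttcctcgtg
Psme2: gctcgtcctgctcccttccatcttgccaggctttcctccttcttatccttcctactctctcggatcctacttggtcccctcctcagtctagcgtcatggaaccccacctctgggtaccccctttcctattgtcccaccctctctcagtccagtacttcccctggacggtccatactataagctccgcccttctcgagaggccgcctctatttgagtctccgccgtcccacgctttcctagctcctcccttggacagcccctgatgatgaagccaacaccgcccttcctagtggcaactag

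Capitals in *Psmb8* mark TTCNNNGAA, the letters of the gamma-activated site (GAS) of interferon-γ target genes, which start 97 bases before the RefSeq start site. Capitals in *Psme1* mark the reverse complement of GAAA and GAAA spaced by 2 bases of any kind, the core of the interferon-stimulated response element (ISRE), 9 bases past it. Among the members with a RefSeq promoter, 42 of 50, the GAS letters stood in 7.14% (3 genes) and the ISRE core in 11.9% (5 genes), on either strand, against 9.55% and 3.99% of 27025 promoters of the same length. For each motif 1 of these genes was an immunoproteasome gene, and enrichment was not tested. CCAAT was in 35.7% of members' and 41.1% of all promoters, and TGACNNNGC, the core of the antioxidant response element that the factors Nrf1 and Nrf2 bind, in 14.3% and 14%. The *Psmb9*, *Psme2* and *Psmb10* windows held neither the GAS nor the ISRE letters, which says only that these letters are not in these windows. Of the 4 printed windows, that of *Psmb9* held CCAAT, on the opposite strand and left in lower case.

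Of the 5 immunoproteasome genes, 2 were called higher in Tregs and 2 lower in NK cells than in CD8 T cells. Among all genes 11.9% were higher in Tregs and 11.9% lower in NK cells. None of these calls against CD8 T cells passed without Kaede-green 2. *Psme2*, a subunit of the PA28 activator that opens the barrel, was highest in Tregs, 1.71-fold above CD8 T cells, while *Psmb9* and *Psmb8* were lower in NK cells than in CD8 T cells. *Psmb10* and *Psme1* did not pass the test in any of the 3 comparisons. *Psme2* stood at 778, 799 and 772 CPM in Tregs, at 419, 427 and 410 CPM in CD8 T cells and at 372, 386 and 408 CPM in NK cells. Its 3 Treg values lay above every value of the other types, whereas CD8 T and NK cells did not differ beyond the test (log2 −0.05 ± 0.10, edgeR quasi-likelihood test, Benjamini-Hochberg adjusted p = 0.77). Against CD8 T cells the log2 difference in Tregs was 0.78 ± 0.10 (edgeR quasi-likelihood test, adjusted p = 0.00141).

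*Psmb9*, the catalytic subunit β1i that replaces *Psmb6*, followed an order without overlap between the types. Its levels were 480, 509 and 537 CPM in Tregs, 326, 365 and 393 CPM in CD8 T cells and 225, 247 and 263 CPM in NK cells. The log2 difference was 0.37 ± 0.09 for Tregs against CD8 T cells (adjusted p = 0.0187) and −0.51 ± 0.09 for NK against CD8 T cells (adjusted p = 0.00435, edgeR quasi-likelihood test). *Psmb8*, the chymotrypsin-like subunit β5i, ran in the same order at 1089, 1169 and 1118 CPM in Tregs, 860, 930 and 973 CPM in CD8 T cells and 643, 713 and 721 CPM in NK cells. For *Psmb8* the NK against CD8 T difference was −0.36 ± 0.09 (edgeR adjusted p = 0.0305), and the Treg against CD8 T difference of 0.17 ± 0.09 did not pass (adjusted p = 0.26), although the 3 Treg values lay above the 3 CD8 T values. The CPM values and the fit differ here, because the fit's scaling between types (TMM) set the median of all 13183 genes tested to −0.01 for Tregs against CD8 T cells. With library size alone that median was 0.11.

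*Psmb10*, the trypsin-like subunit β2i, overlapped between all types. It stood at 235, 239 and 216 CPM in Tregs, 230, 223 and 200 CPM in CD8 T cells and 232, 226 and 211 CPM in NK cells, lowest in Kaede-red in each type. *Psme1*, the partner of *Psme2* in PA28, was at 786, 872 and 752 CPM in Tregs, 688, 711 and 580 CPM in CD8 T cells and 766, 786 and 699 CPM in NK cells. Its NK against CD8 T difference was 0.24 ± 0.10 (edgeR adjusted p = 0.119), and the 2 PA28 genes did not share an order across types. The constitutive catalytic genes *Psmb5*, *Psmb6* and *Psmb7* overlapped between the types, with *Psmb5* at 232, 232 and 196 CPM in Tregs, 180, 197 and 222 CPM in CD8 T cells and 185, 197 and 235 CPM in NK cells. In Tregs these 3 genes were lowest in Kaede-red, and in CD8 T and NK cells they were highest there.

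**Figure D1:**
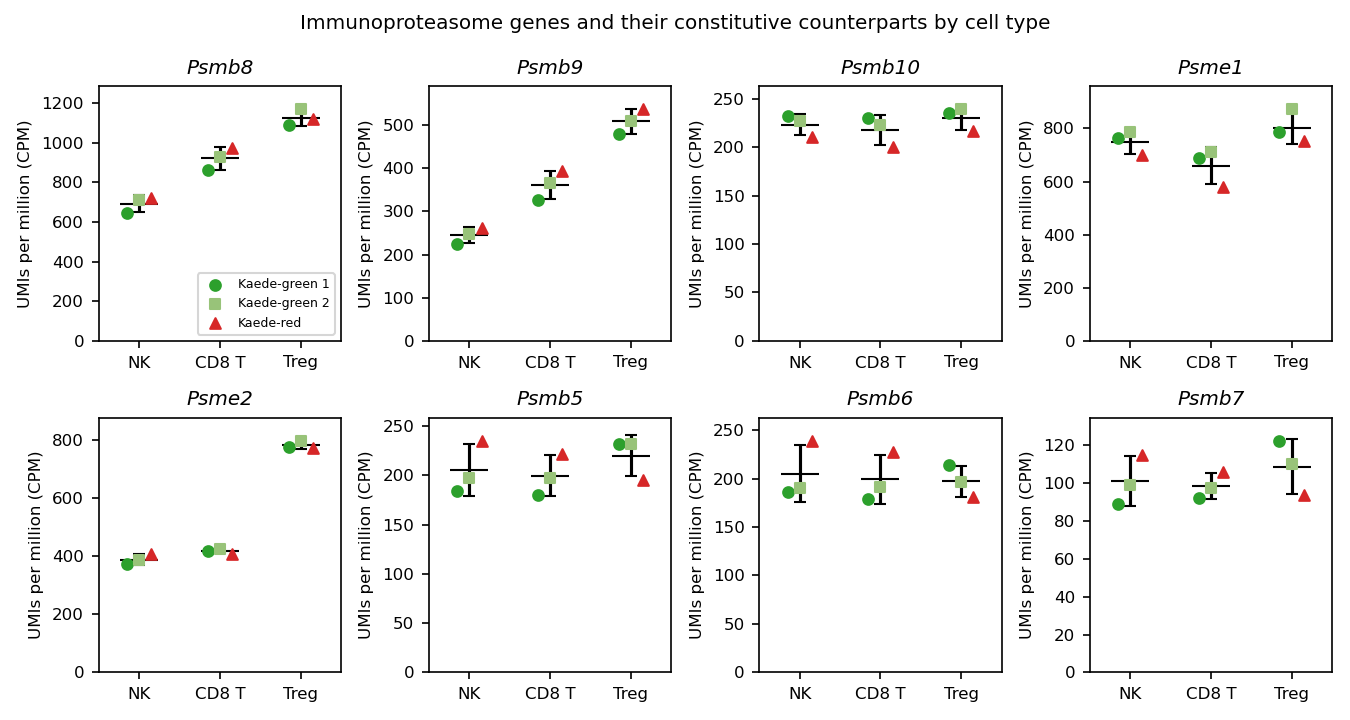
Level (CPM, vertical axis from 0) of the 5 immunoproteasome genes and of the constitutive catalytic genes Psmb5, Psmb6 and Psmb7 in NK cells, CD8 T cells and Tregs. Each symbol is 1 library, the line is the mean and the bar the SD of 3 libraries; Psmb9 rises without overlap from NK (225 to 263 CPM) through CD8 T (326 to 393 CPM) to Treg (480 to 537 CPM), and Psmb10 stays between 200 and 239 CPM.

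Of 48 members with enough UMIs to test, 5 were higher and 0 lower in Tregs than in CD8 T cells at an adjusted p under 0.05 by edgeR's quasi-likelihood test, where 11.9% of all genes tested were higher and 10.6% lower. Thus the members' shares were not above those of all genes. At an unadjusted p under 0.05, 0 were lower, and DESeq2 called 0 lower. The members' median log2 difference was 0.16, with all genes at −0.01. Beside *Psme2* and *Psmb9*, the 5 were *Psmd7* and *Psmc1*, of the 19S lid and the 19S ATPase ring, and *Psma3*, an alpha-ring subunit, with log2 differences of 0.45 ± 0.13, 0.44 ± 0.12 and 0.41 ± 0.12 (adjusted p = 0.0372, 0.0409 and 0.0489 by edgeR). *Psmd7* had 115, 112 and 94.5 CPM in Tregs and 70.6, 73.5 and 71.8 CPM in CD8 T cells. The count of higher members moved with the scaling and with single libraries. It was 14 with library size alone, 24 without Kaede-red, 1 without Kaede-green 1 and 0 without Kaede-green 2. In cells matched on total UMIs it was 13, in a fit that also left out the NK sums. The share of all genes called under these settings is not given here. These counts therefore do not tell a change in the members from a general change in calls. Summed over all members the level was 9669 ± 490 CPM in Tregs, 7819 ± 344 CPM in CD8 T cells and 7398 ± 502 CPM in NK cells (SD, n = 3 libraries). The 5 immunoproteasome genes made up 3450 ± 120, 2578 ± 69.1 and 2299 ± 60.3 CPM of it in that order (SD, n = 3). These sums are without TMM scaling, so they include any shift that all genes share between the types.

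NK cells had 0 members higher and 3 lower than CD8 T cells by edgeR's quasi-likelihood test, against 11.0% and 11.9% of all genes (23.0% in either direction), and the members' median of 0.02 was close to the 0.01 of all genes. Neither share of members was above that of all genes. DESeq2 called 0 higher, and 2 were higher at an unadjusted p under 0.05. In cells matched on total UMIs, in a fit that also left out the Treg sums, 6 were higher and 3 lower. The gene called beside *Psmb9* and *Psmb8* was *Psme2b* (11.0, 8.01 and 6.32 CPM in NK against 15.2, 11.5 and 9.59 CPM in CD8 T cells), which overlaps other counted genes on its own strand, so its reads may be split between them. None of the 3 passed without Kaede-green 1 or without Kaede-green 2, and without Kaede-red 6 were lower and 1 higher. Against Tregs, which the same NK libraries were also set beside, NK cells had 9 members lower and 0 higher, against 19.2% and 18.1% of all genes (37.3% in either direction), with a members' median of −0.09 and 0.02 over all genes. The largest were *Psmb9* (−0.88 ± 0.09), *Psme2* (−0.83 ± 0.10), *Psme2b* (−0.73 ± 0.11), *Psmb8* (−0.52 ± 0.10) and *Psmd7* (−0.43 ± 0.13), with edgeR adjusted p-values between 0.000183 and 0.0306. The members' shares were again not above those of all genes. DESeq2 called 12 lower and 0 higher, and 1 was higher at an unadjusted p under 0.05 by edgeR. The count of 9 was 28 without Kaede-red, 3 without Kaede-green 1, 2 without Kaede-green 2 and 20 with library size alone. In cells matched on total UMIs, in a fit that also left out the CD8 T sums, 15 were lower and 4 higher. For both NK comparisons, too, the share of all genes called under these settings is not given. *Psmb8* and *Psmb9* were called lower in NK cells in both comparisons, which share the NK sums.

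The ratio of each induced catalytic gene to the constitutive gene whose place its product takes needs no scaling between cell types. It can still move with depth. From the shallowest to the deepest Kaede-red cells the immunoproteasome sum changed 0.784-fold in CD8 T cells and 1.07-fold in Tregs. For constitutive beta genes the change was 1.39- and 1.36-fold. The part of depth in the ratios was not tested. *Psmb9* over *Psmb6* was 0.27, 0.38 and 0.14 (log2) in NK cells, 0.87, 0.93 and 0.79 in CD8 T cells and 1.17, 1.37 and 1.57 in Tregs, with no overlap between types. NK cells lay below CD8 T cells by −0.60 ± 0.05 log2 (SD, n = 3) and Tregs above CD8 T cells by 0.51 ± 0.25 log2, each with an exact sign-flip p = 0.25, the smallest that 3 libraries allow. The Treg difference was 0.30, 0.44 and 0.78 by library. It was largest in Kaede-red, where the median Treg had 7139 UMIs and the median CD8 T cell 14191. *Psmb8* over *Psmb5* was lower in NK than in CD8 T cells in each library, by −0.45 ± 0.07 log2 on average (SD, n = 3, exact p = 0.25), and did not order Tregs and CD8 T cells (higher in 2 of 3 libraries). *Psmb10* over *Psmb7* was 1.38, 1.19 and 0.88 in NK cells, 1.31, 1.19 and 0.91 in CD8 T cells and 0.94, 1.12 and 1.20 in Tregs, and did not separate the types.

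Genes that act with the proteasome were grouped in 3 lists. Their counts stand beside these shares of all genes. In Tregs 11.9% were higher and 10.6% lower than in CD8 T cells. In NK cells 11.0% were higher and 11.9% lower than in CD8 T cells, and 18.1% higher and 19.2% lower than in Tregs. For lists this short, counts near these shares are not a result about the list. Of 11 genes of class I peptide loading, 4 were higher and 0 lower in Tregs than in CD8 T cells by edgeR's quasi-likelihood test, with 0 lower by DESeq2 or at an unadjusted p under 0.05: *Tap1* (0.74, adjusted p = 0.00122), *Tap2* (0.68), *Tapbpl* (0.62) and *Tapbp* (0.38). *Tap1*, which lies between *Psmb9* and *Psmb8*, was at 340, 310 and 356 CPM in Tregs, 186, 179 and 187 CPM in CD8 T cells and 148, 134 and 114 CPM in NK cells, the same order as its neighbors. NK cells had 2 of the 11 lower than CD8 T cells, *Tap1* (−0.43) and *Tap2* (−0.42), and 2 higher, *Canx* (0.53) and *Pdia3* (0.43), which encode chaperones of the endoplasmic reticulum. Against Tregs, 3 were lower in NK cells (*Tap1* −1.17, *Tap2* −1.10, *Tapbpl* −0.51) and *Canx* was higher (0.51).

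Of 9 genes of the interferon-γ axis, the cytokine *Ifng* was lower in Tregs than in CD8 T cells (−3.29, edgeR adjusted p = 0.000217) while 3 were higher, among them the kinase gene *Jak2* (1.15) and the transcription factor gene *Irf1* (0.73). For NK against CD8 T cells 1 of the 9 was higher (*Jak1*, 0.45), and against Tregs 2 were higher and 4 lower, among them *Ifng* (2.74), *Ifngr2* (−2.53) and *Jak2* (−1.05). Of 15 proteasome partners (assembly, ubiquitin-handling and regulatory genes), 1 was higher and 1 lower in Tregs than in CD8 T cells (*Zfand5*, 0.31, and *Ecpas*, −0.32), 1 was higher in NK than in CD8 T cells (*Ecpas*, 0.30), and 2 were higher in NK cells than in Tregs, among them *Ecpas* (0.62).

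Within NK cells, those with *Itga1* (CD49a, an integrin of tissue-resident NK cells) and without *Itgam* were set beside those with *Itgam* (CD11b, on mature circulating NK cells) and without *Itga1*. The libraries held 315, 491 and 1527 *Itga1*+ and 426, 306 and 76 *Itgam*+ cells. A further 1829, 1833 and 1536 NK cells had no UMI of either gene and were left out. Over all their cells, *Itga1*+ NK cells carried more transcripts of the core particle: 7 of 7 alpha and 7 of 7 constitutive beta genes tested were higher, along with 6 of 6 ATPases. In cells matched on total UMIs none of these genes passed. The median log2 difference there was 0.16 for alpha (0.47 in all cells) and 0.19 for constitutive beta genes (0.37), with 7 of 7 above 0 in each class. Of the immunoproteasome genes, *Psmb9*, *Psmb8* and *Psme2* were higher and *Psmb10* and *Psme1* were not called. In all, 36 members were higher and 1 lower of 48 by edgeR's quasi-likelihood test, where 18.5% of 9506 genes were higher and 17.3% lower. The members' median was 0.39 with all genes at −0.02.

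Of the 7 assembly chaperone genes 3 were higher (median log2 difference 0.30), among them *Psmg1* and *Psmg2*, which encode PAC1 and PAC2, partners that build the alpha ring. *Psmg1* was at 23.9, 22.7 and 29.9 CPM in *Itga1*+ and 11.5, 9.24 and 10.8 CPM in *Itgam*+ NK cells (1.30 ± 0.18, edgeR adjusted p = 0.000186). *Psmg2* was at 38.2, 41.9 and 42.8 against 17.6, 18.1 and 26.2 CPM (1.16 ± 0.14, edgeR adjusted p = 7.65e-05), and neither gene overlapped between the groups. In the core, *Psma4* was at 199, 186 and 242 against 122, 128 and 149 CPM (0.72 ± 0.09). The chymotrypsin-like subunit gene *Psmb5* was at 215, 216 and 238 against 150, 142 and 168 CPM (0.62 ± 0.09). *Psmd3*, a 19S lid gene, was at 57.7, 44.4 and 58.5 against 29.8, 32.8 and 27.7 CPM (0.84 ± 0.14), again with no overlap for these 3 genes. The *Psmd3* value of *Itgam*+ cells in Kaede-red rests on 18 UMIs. *Psmc3ip*, the recombination gene that only shares the name, had the highest fold of the rule's matches (9.62, 7.38 and 15.0 against 2.67, 3.36 and 4.62 CPM, 1.60 ± 0.32). Its *Itgam*+ values rest on only 7, 8 and 3 UMIs, so the size of this fold is uncertain.

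The immunoproteasome genes had a median of 0.35, beside 0.47 for the alpha, 0.37 for the constitutive beta, 0.35 for the ATPase and 0.45 for the non-ATPase genes. *Psmb8* was at 743, 736 and 737 CPM in *Itga1*+ and 544, 601 and 563 CPM in *Itgam*+ NK cells (0.45 ± 0.08, edgeR adjusted p = 0.000657). *Psmb9* was at 260, 264 and 274 against 188, 196 and 205 CPM (0.51 ± 0.08, edgeR adjusted p = 0.000509). *Psme2* reached 400, 378 and 393 against 305, 315 and 355 CPM (0.35 ± 0.08, edgeR adjusted p = 0.00643), and none of these 3 overlapped. *Psmb10* (0.09 ± 0.09, edgeR adjusted p = 0.49) and *Psme1* (0.11 ± 0.09, edgeR adjusted p = 0.369) overlapped between the groups. *Psme4*, which encodes the ubiquitin-independent activator PA200, was the 1 member lower, at 16.0, 20.9 and 16.8 against 27.5, 29.8 and 20 CPM (−0.48 ± 0.17, edgeR adjusted p = 0.0377), a call lost under most other settings. *Psmb8* over *Psmb5* was lower in *Itga1*+ cells in 3 of 3 libraries (−0.16 ± 0.13 log2, SD, n = 3, exact p = 0.25) and *Psmb9* over *Psmb6* was higher in 2 of 3 (0.054 ± 0.16 log2). *Psmb10* over *Psmb7* was lower in 3 of 3 (−0.31 ± 0.28 log2, SD, n = 3, exact p = 0.25).

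Depth moved with this comparison. The median cell had 9493, 12075 and 24478 UMIs among *Itga1*+ and 5345, 6717 and 6701 among *Itgam*+ NK cells, and *Mki67*+ (cycling) cells made up 10.2%, 16.3% and 30.1% against 1.64%, 6.21% and 1.32%. When equal numbers of cells with like totals were taken from both groups (211, 235 and 74 cells each), 1 member passed, *Psmb8* (0.30, edgeR adjusted p = 0.0160), where 1.52% of all genes were higher. The members' median was then 0.16, and 14 were higher at an unadjusted p under 0.05. Without *Mki67*+ cells 32 members were higher, and without the library as a block 18, where 13.6% of all genes were higher. Myeloid genes summed to 3.82, 364 and 174 CPM in *Itgam*+ NK cells, and to between 1.96 and 40.6 CPM in *Itga1*+ NK cells. Without cells that carry markers of another lineage as well, 35 members were higher. Without Kaede-green 2, 15 were higher, and without Kaede-green 1, 22. For the counts without *Mki67*+ cells, without cells of another lineage or without a library, the share of all genes called is not given here. Those counts do not tell a change in the members from a general change in calls. Beyond these values the part of depth, of cycling and of myeloid RNA in the result was not tested.

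For the lists below, 18.5% of all genes were higher and 17.3% lower in this comparison. Of the partner genes, 5 of 15 were higher and 2 lower in *Itga1*+ NK cells, by edgeR's quasi-likelihood test, among them *Uchl5* (0.64) and *Usp14* (0.54), deubiquitinases of the 19S cap, and *Vcp* (0.50), an unfolding ATPase. *Pomp*, which completes barrel assembly, was also higher, at 352, 346 and 382 against 252, 270 and 298 CPM (0.48 ± 0.08). In the class I list 3 chaperone genes were higher (*Calr* 0.62, *Pdia3* 0.52, *Canx* 0.44), *H2-K1* (−0.29) and *H2-D1* (−0.25) were lower, and *Tap1* (0.09) and *Tap2* (0.10) were not called. The interferon-γ axis was lower in most of its genes, with 0 of 9 higher and 7 lower by edgeR and by DESeq2, and 0 higher at an unadjusted p under 0.05. The 7 were led by *Ifng* (−1.57), *Ifngr1* (−1.0), *Irf1* (−0.98) and *Jak1* (−0.73). Among all genes 17.3% were lower. In cells matched on total UMIs 8 genes of this axis were tested, of which 2 were lower and 1 higher by edgeR. Without the library as a block 4 were lower. Of the partner and class I genes 0 passed in matched cells.

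Within CD8 T cells, *Havcr2*+ cells (TIM-3, an inhibitory receptor of chronically stimulated T cells) were set beside *Havcr2*- cells. In *Havcr2*+ cells 18 members were higher and 5 lower of 48 by edgeR's quasi-likelihood test, against 13.8% of all 12249 genes tested in each direction. The members' median was 0.16 and that of all genes −0.00. Higher members were 3 of 7 alpha genes, 4 of 7 constitutive beta genes, 1 of 6 ATPases and 8 of 11 non-ATPases, with none of the 5 immunoproteasome genes, of which 2 were lower.

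*Psmb10* and *Psme1* were the immunoproteasome genes called lower. *Psmb10* was at 182, 194 and 184 CPM in *Havcr2*+ and 248, 243 and 221 CPM in *Havcr2*- cells (−0.39 ± 0.06, edgeR adjusted p = 0.00328). *Psme1* was at 567, 643 and 531 against 734, 759 and 645 CPM (−0.34 ± 0.05, edgeR adjusted p = 0.00269), with no overlap for either gene. *Psmb8* (893, 951 and 975 against 848, 915 and 969 CPM, 0.00 ± 0.05), *Psmb9* (0.06 ± 0.05) and *Psme2* (0.02 ± 0.05) overlapped between the groups and did not pass. The other lower members were *Psme2b* (−0.47 ± 0.09) and the chaperone genes *Psmg1* (−0.39 ± 0.10) and *Psmg4* (−0.26 ± 0.06). *Psmg1* was thus lower in *Havcr2*+ CD8 T cells and higher in *Itga1*+ NK cells, at 13.3, 10.8 and 11.9 against 14.2, 13.5 and 17.2 CPM in the CD8 T groups. The difference between the 2 contrasts was not tested.

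The 5 largest increases were in *Psmd1* (0.38 ± 0.07), a scaffold of the 19S base, *Psmc3ip* (0.35 ± 0.10), *Psma4* (0.33 ± 0.06), *Psmd6* (0.29 ± 0.07) and *Psmb6* (0.29 ± 0.06), with edgeR adjusted p-values between 0.00463 and 0.0323. *Psma4* was at 248, 228 and 242 CPM in *Havcr2*+ and 170, 177 and 208 CPM in *Havcr2*- cells, without overlap. *Psmb5* (0.25 ± 0.06) passed and *Psmb7* (0.20 ± 0.07, edgeR adjusted p = 0.0566) did not. Relative to their constitutive counterparts the induced genes were lower in *Havcr2*+ cells in each library, by −0.25 ± 0.10 for *Psmb8* over *Psmb5*, −0.23 ± 0.03 for *Psmb9* over *Psmb6* and −0.60 ± 0.26 for *Psmb10* over *Psmb7* (log2, SD, n = 3, exact p = 0.25 each). The part of depth, which differed between these groups, was not tested for the ratios.

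**Figure D2:**
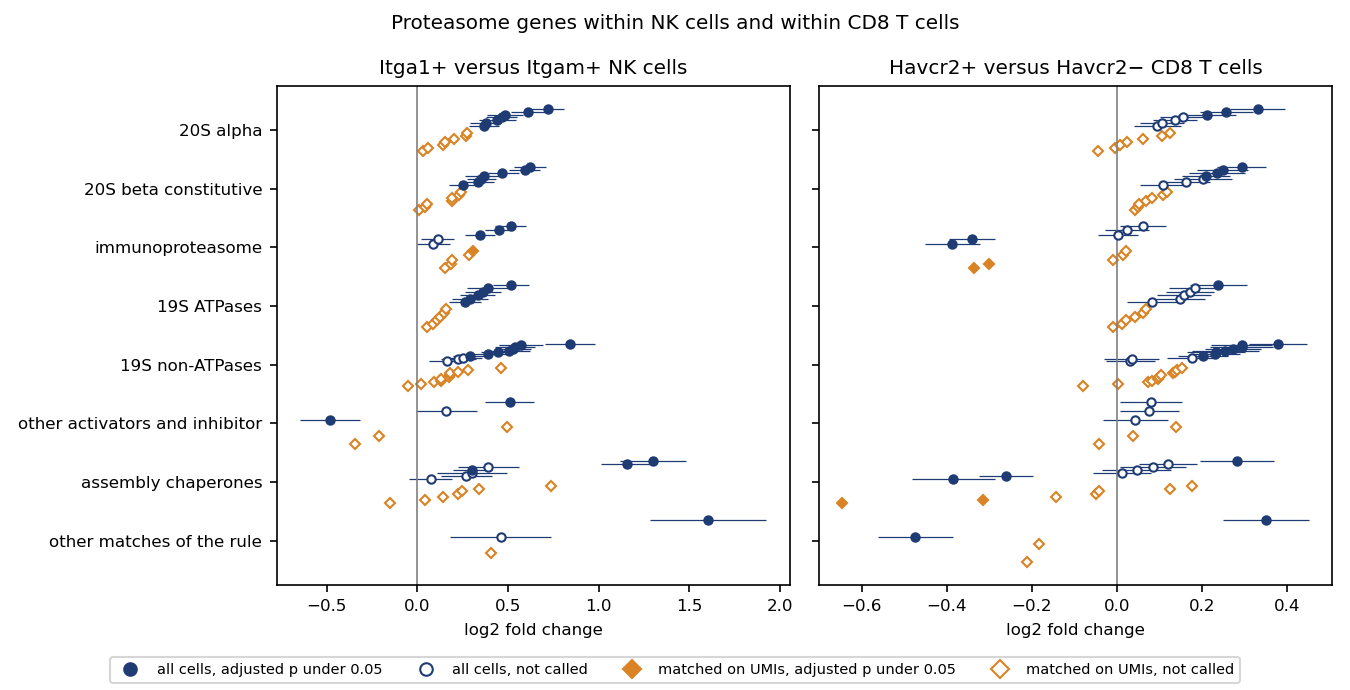
Log2 fold change (horizontal axis) of each tested proteasome gene, grouped by class, in Itga1+ against Itgam+ NK cells and in Havcr2+ against Havcr2- CD8 T cells. Circles with SE bars are the fit on all cells and diamonds the fit on cells matched on total UMIs, filled at an adjusted p under 0.05; core and cap genes lie to the right in both panels and move toward 0 when matched, while Psmb10 and Psme1 stay to the left in CD8 T cells.

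Depth differed here too, with medians of 12847, 12644 and 17717 UMIs in *Havcr2*+ and 8533.5, 9572 and 11328.5 in *Havcr2*- cells, and *Mki67*+ shares of 21.3%, 26.7% and 34.1% against 8.65%, 16.1% and 22.3%. In cells matched on total UMIs 0 members were higher and 4 lower by edgeR's quasi-likelihood test: *Psmb10* (−0.34), *Psme1* (−0.30), *Psmg1* (−0.65) and *Psmg4* (−0.31). At an unadjusted p under 0.05, 8 were higher. The decreases in *Psmb10* and *Psme1* were thus nearly as large at like depth, and none of the increases passed there. Without the library as a block 0 members passed in either direction (12 higher and 5 lower at an unadjusted p under 0.05). DESeq2 called 9 higher and 3 lower, and without Kaede-green 2 the counts were 1 and 3. Mast cell genes summed to 59.9 CPM in *Havcr2*- cells of Kaede-red and to at most 0.413 CPM in *Havcr2*+ cells, and NK genes to between 899 and 1564 against between 1755 and 2039 CPM. Without cells holding UMIs of other lineages, the mast cell gene *Cpa3* and the NK genes *Ncr1* and *Klrb1c* included, 13 members were higher and 4 lower. The share of all genes called under these alternative settings is not given here. Their counts do not tell a change in the members from a general change in calls. In the fit on all cells, 13.8% of all genes were higher and 13.8% lower. Of the partners 3 of 15 were higher there, *Usp14* (0.32), *Pomp* (0.21) and *Sem1* (0.21), and 1 was lower. Of the class I list 3 were higher, *Calr* (0.40), *Canx* (0.26) and *Pdia3* (0.18), and 2 lower, *Tapbpl* (−0.55) and *H2-K1* (−0.13). In the interferon-γ axis *Ifng* was higher (1.32), with 473, 421 and 268 against 136, 159 and 142 CPM, and 7 of 9 were lower, led by *Ifngr2* (−1.65), *Irf1* (−0.64) and *Socs1* (−0.61). Of the 9, 6 were lower in cells matched on total UMIs and 0 without the library as a block.

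Splitting cells by their total UMIs, a description chosen after the data were seen, showed how each class went with depth. The bands were under 5000, 5000 to 10000, 10000 to 20000 and 20000 or more UMIs. Being this wide, they leave room for groups to differ in depth within a band. In each cell group and library with more than 1 band, constitutive beta genes took a larger share of the UMIs in the deepest than in the shallowest band (1.08- to 1.60-fold), while the immunoproteasome share ranged from 0.784- to 1.35-fold. Within a band the *Itga1*+ sum of all members lay above the *Itgam*+ sum in 7 of 7 pairs of band and library (1.09- to 1.19-fold) the immunoproteasome sum in 7 of 7 (1.11- to 1.27-fold) and the constitutive beta sum in 6 of 7 (0.997- to 1.17-fold). In CD8 T cells the constitutive beta sum was higher in *Havcr2*+ cells in 9 of 9 pairs (by 1.01-fold or more) and the immunoproteasome sum in 1 of 9 (0.885- to 1.02-fold). Tregs had a higher sum of all members than CD8 T cells in 12 of 12 pairs (1.05- to 1.37-fold), of the immunoproteasome genes in 10 of 12 (0.959- to 1.40-fold) and of the constitutive beta genes in 11 of 12 (0.931- to 1.22-fold). NK cells had a lower sum of all members than Tregs in 12 of 12. These sums are without TMM scaling, so a shift that all genes share between the types is part of them. In the fit between types the TMM factors were 1.08, 1.05 and 1.08 for Tregs and 0.970, 0.999 and 0.982 for CD8 T cells.

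**Figure D3:**
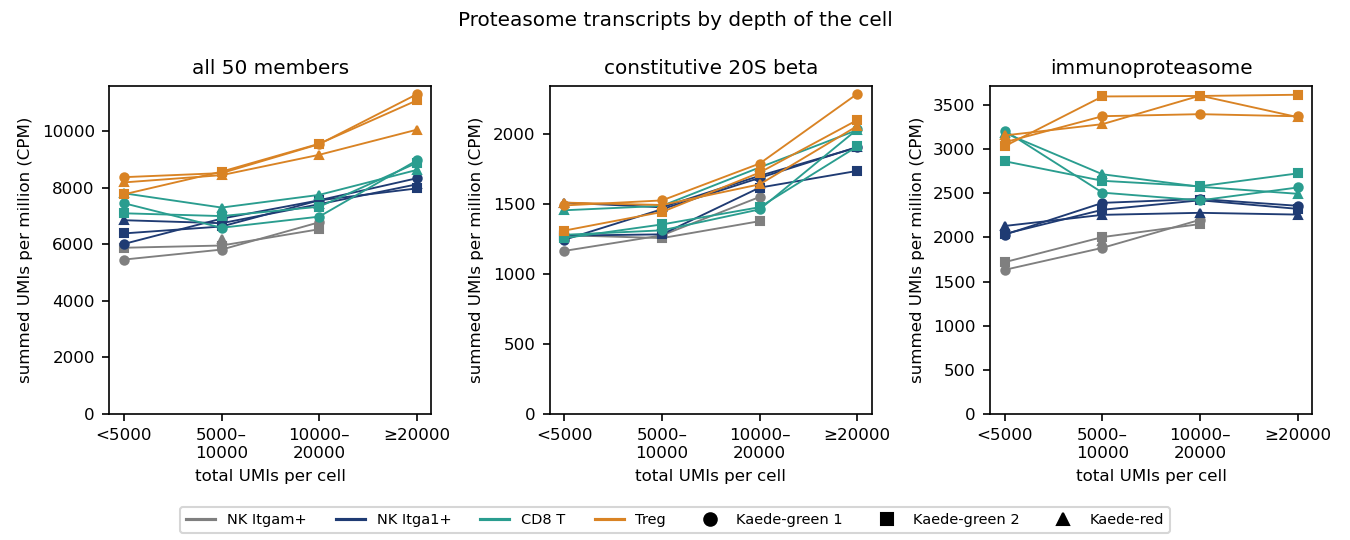
Summed level (CPM, vertical axes from 0) of all 50 members, the constitutive 20S beta genes and the immunoproteasome genes in bands of total UMIs per cell (horizontal axis), for Itgam+ NK cells, Itga1+ NK cells, CD8 T cells and Tregs. Each line is 1 group in 1 library and bands under 20 cells are left out. The constitutive beta sum is higher in the deepest than in the shallowest band of each line. Within a library Tregs lie above CD8 T cells in the panel of all members in each band. The sums are without TMM scaling, so a shift shared by all genes is included.

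By Kaede color, 1 KR+ library stands against 2 KG+ libraries, so there is no test and no replicate of the KR+ side. A member counts as past the fold when its log2 ratio of KR+ to KG+ was at least 0.32 in size and of one sign against both KG+ libraries, and larger than the difference between these 2. In NK cells 9 members were higher and 1 lower in Kaede-red, where 11.9% of all genes were higher and 28.0% lower. The members' median log2 ratio was 0.22 and 0.16 against Kaede-green 1 and Kaede-green 2, with all genes at −0.16 and −0.14. The 9 were the core genes *Psma4*, *Psma6*, *Psmb2* and *Psmb6*, the lid genes *Psmd3* and *Psmd13*, the chaperones *Psmg1* and *Psmg2*, and *Psmc3ip*. *Psma4* went from 163 and 171 CPM to 235 CPM (95% Poisson interval 231 to 239, which covers counting error only) and *Psmg1* from 15.2 and 18.1 to 28.4 CPM (27.1 to 29.8). *Psme4*, the PA200 gene, was the 1 lower, from 23.1 and 24 to 16.8 CPM (15.8 to 17.8).

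The NK groups differ in make-up between the colors, with 1527 *Itga1*+ cells in Kaede-red and 315 and 491 in the KG+ libraries. Within *Itga1*+ NK cells 1 member was past the fold, *Psmc3ip*, higher (5.82% of genes higher and 18.3% lower), with members' medians of 0.08 and 0.08. Within the *Itgam*+ group, where Kaede-red had 76 cells, 5 were higher and 1 lower of 45 with enough UMIs (9.86% and 22.5% of genes). They included *Psma6*, at 90.5 and 95.7 in KG+ and 140 CPM in KR+ cells (113 to 172), and *Psme4*, the lower one, which rests on 13 UMIs in Kaede-red.

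In CD8 T cells 1 member was past the fold, *Psmc3ip*, at 9.59 and 10.0 in KG+ and 14.9 CPM in KR+ cells (10.6% of genes higher, 12.5% lower), and the members' medians were 0.16 and 0.09. *Havcr2*- CD8 T cells had 2 higher, *Psmb3* and *Psmc3ip*, and 1 lower, *Psme4* (11.0% and 10.5% of genes), and *Havcr2*+ CD8 T cells had 0 of either (5.25% and 7.90%). In Tregs 0 members were higher and 4 lower in Kaede-red (8.04% and 6.41% of genes): *Psmd1* (89.1 and 75.8 to 59.8 CPM), *Psmd6* (86.8 and 86.5 to 62.6 CPM), *Psmc1* (88.0 and 96.7 to 68.3 CPM) and *Psmc3ip*, with members' medians of −0.22 and −0.18. The median Treg in Kaede-red also had fewer UMIs, 7139 against 9577.5 and 10098, and the median NK cell more, 17234 against 6132 and 8184; the part of depth was not tested. No immunoproteasome gene was past the fold in any of the 7 groups. Their largest change of one sign was *Psme1* in CD8 T cells, from 688 and 711 to 580 CPM (574 to 586).

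**Figure D4:**
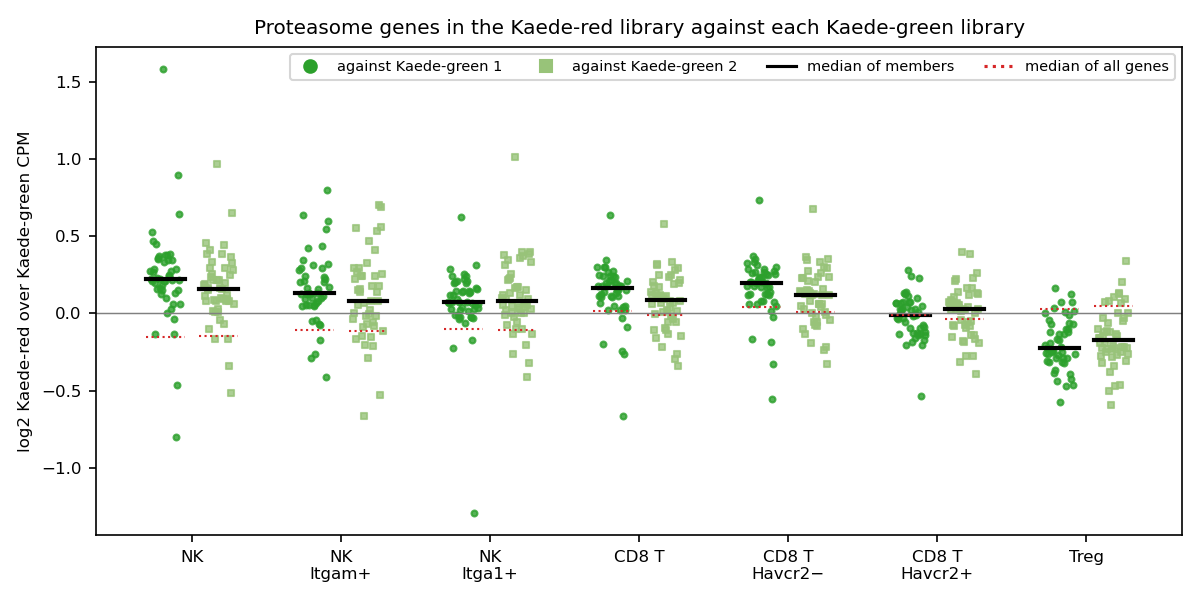
Log2 ratio (vertical axis) of the Kaede-red to each Kaede-green library for each proteasome gene with enough UMIs, in the 7 cell groups. Black lines are the members' medians and dotted red lines those of all genes; the members lie above all genes in NK cells (0.22 and 0.16 against −0.16 and −0.14) and below them in Tregs (−0.22 and −0.18 against 0.03 and 0.05).

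The 2 members outside every test were *Psmb11*, the catalytic subunit of the thymoproteasome of cortical thymic epithelium, and *Psma8*, the alpha subunit of the testis proteasome, with 14 UMIs each over all libraries. Among the tested members, *Psma2* and *Psmd12*, like *Psme2b*, overlap another counted gene on the same strand, and *Psmb5*, *Psmb6* and *Psmb7* have named pseudogenes, so reads could have been shared between them or left out in counting.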

How the data were processed

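Libraries were 10x Chromium 3' v3 preparations, and the deposited files hold raw UMI counts of each gene in each cell barcode that the authors kept with Cell Ranger (6.1.2 per the labels and the study's methods, 6.0.1 per the file headers) on build mm10. Cells with 1000 to 6000 detected genes and under 7.5% mitochondrial UMIs were kept. Cells that met both the CD8 T and Treg rules were left out, as were NK cells with both or neither integrin gene from the subset comparison. No doublet caller was applied in the main analysis (the top 6% of Scrublet scores were removed as an alternative). Counts were summed per library and cell group, genes were filtered with filterByExpr, and groups were compared with edgeR 4.0.16 (R 4.3.3, limma 3.58.1), TMM scaling, the library as block, and Benjamini-Hochberg adjustment over all genes. The block stands because both groups of a comparison come from the same library. Comparisons between NK cells, CD8 T cells and Tregs shared a single fit of all their sums. The fit on cells matched on total UMIs held only the groups compared. DESeq2 1.42.0, other scalings and filters, thinning of cells to 2000 UMIs, matching on total UMIs in bins of 0.5 log2, and leaving out each library were alternatives. Color ratios used a prior of 0.5 UMIs and genes with a mean of at least 20 UMIs. Exact Poisson intervals are at 95%. Per-pair ratios used a two-sided exact sign-flip test. Tables were made with numpy 2.4.6, pandas 2.3.3, scipy 1.17.1 and scanpy 1.11.5, and scripts were tested on simulated data. Named genes were the 5 immunoproteasome and 3 constitutive catalytic genes, the 5 called members with the largest change in each direction, members below the filter, and up to 4 called genes of each pathway list; other genes named were chosen after their values were seen. Members, lists and rules were chosen with earlier results of these data known. Positions are from the annotation of GRCm38, which held all 50 identifiers. Promoters are from RefSeq. Protein sequences were not analysed here, and values of some genes in the pathway lists are not reported here.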

Additional observations from a re-analysis of the deposited data

Results flagged for a closer look

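In 8 cases the Kaede-red library went one way within a comparison and both KG+ libraries the other way. With 1 KR+ library, the difference between colors was not tested. Values are log2 ratios of CPM within a library, given for Kaede-red first and then for Kaede-green 1 and Kaede-green 2. The constitutive catalytic genes account for 6 of them. For Tregs against CD8 T cells, *Psmb5* had −0.18 against 0.36 and 0.24, *Psmb6* −0.33 against 0.26 and 0.04, and *Psmb7* −0.18 against 0.41 and 0.17. For NK cells against Tregs, which share the Treg sums, *Psmb5* had 0.27 against −0.33 and −0.24, *Psmb6* 0.40 against −0.20 and −0.05, and *Psmb7* 0.29 against −0.46 and −0.15. The median Treg had fewer UMIs in Kaede-red (7139) than in the KG+ libraries (9577.5 and 10098). The PA28 genes account for the other 2, with *Psme1* in *Itga1*+ against *Itgam*+ NK cells at −0.20 against 0.21 and 0.08, and *Psme2* in *Havcr2*+ against *Havcr2*- CD8 T cells at −0.031 against 0.12 and 0.11. Other members were not counted, and some turned in the same way, so the pattern is not particular to these genes. *Psma7*, for one, had 348 CPM in Tregs and 371 CPM in CD8 T cells of Kaede-red. In Kaede-green 1 it had 433 and 345 CPM, and in Kaede-green 2 434 and 373 CPM.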

How the results depend on the processing

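Counts of members called moved with settings, and the cause was not tested unless the setting itself has fewer cells or genes. The share of all genes called under each setting is not given in this section. The other counts therefore do not tell a change in the members from a general change in calls. Each library holds both groups of a comparison, which is where the pairing comes from, and without that replicate block the counts of members higher and lower were 18 and 0 (*Itga1*+ against *Itgam*+ NK cells, from 36 and 1), 0 and 0 (*Havcr2*+ against *Havcr2*- CD8 T cells, from 18 and 5), 0 and 1 (NK against CD8 T cells, from 0 and 3) and 3 and 0 (Tregs against CD8 T cells, from 5 and 0). For NK cells against Tregs, 9 were lower with the block and 7 without it.

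In cells matched on total UMIs the counts were 1 and 0, 0 and 4, 6 and 3, 13 and 0, and, for NK cells against Tregs, 4 and 15. Between NK cells, CD8 T cells and Tregs the matched fit also held only the types compared, so these counts mix matching with a change of fit. In cells thinned to 2000 UMIs they were 13 and 0, 8 and 3, 1 and 2, 2 and 0, and 1 and 4. DESeq2 gave 0 lower in *Itga1*+ NK cells, and 9 and 3 in *Havcr2*+ cells. Library size without TMM gave 14 higher in Tregs than in CD8 T cells and 20 lower in NK cells than in Tregs, and no filter on low counts gave 1 higher in Tregs than in CD8 T cells. Without *Mki67*+ cells, 3 were lower in *Havcr2*+ cells, 1 was lower in Tregs than in CD8 T cells, and 4 were higher in NK cells than in Tregs. The 1 lower member of *Itga1*+ NK cells, *Psme4*, was also lost (0 lower) with no filter, all barcodes, no cells of 2 lineages and no *Mki67*+ cells. Leaving out 1 library gave 15 to 39 higher and 0 to 1 lower in *Itga1*+ NK cells, 1 to 18 and 3 to 5 in *Havcr2*+ cells, 0 to 1 and 0 to 6 for NK against CD8 T cells, 0 to 24 and 0 to 0 for Tregs against CD8 T cells, and 0 to 0 and 2 to 28 for NK cells against Tregs. *Psmc3ip* in *Havcr2*+ cells reversed in matched cells, to −0.18.

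By color, a fold of 1.5 left 2 higher and 0 lower in NK cells, 1 and 0 in *Itgam*+ NK cells, 0 higher in CD8 T cells, 1 and 0 in *Havcr2*- CD8 T cells and 0 lower in Tregs. TMM gave 20 higher in NK cells, 12 and 0 in *Itgam*+ and 5 higher in *Itga1*+ NK cells, and 8 lower in Tregs. At least 50 UMIs left 3 higher in *Itgam*+ NK cells. Without the highest Scrublet scores 0 were lower in *Itgam*+ NK and *Havcr2*- CD8 T cells and 11 were lower in Tregs, and with all barcodes 0 were lower in *Havcr2*- CD8 T cells. Thinned cells gave 2 lower in NK cells, 10 and 3 in *Itgam*+ NK cells, 3 and 2 in *Itga1*+ NK cells, 3 higher in CD8 T cells, 1 and 0 in *Havcr2*-, 1 and 1 in *Havcr2*+ CD8 T cells, and 2 lower in Tregs. Without *Mki67*+ cells 2 were higher in *Itga1*+ NK cells, 2 in CD8 T cells, and 1 each in *Havcr2*- and *Havcr2*+ CD8 T cells. Leaving out 1 KG+ library gave 10 to 15 higher and 2 to 2 lower in NK cells, 8 to 8 and 1 to 2 in *Itgam*+ NK cells, 1 to 9 and 1 to 2 in *Itga1*+ NK cells, 2 to 2 and 1 to 1 in CD8 T cells, 5 to 5 and 1 to 2 in *Havcr2*-, 0 to 2 and 1 to 1 in *Havcr2*+ CD8 T cells, and 0 to 1 and 6 to 9 in Tregs.

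Of the ratios, the log2 difference of *Psmb8* over *Psmb5* between NK and CD8 T cells was −0.53 without *Mki67*+ cells and −0.59 in thinned cells, that of *Psmb9* over *Psmb6* was −0.68 and −0.70, and the *Psmb9* over *Psmb6* difference in *Havcr2*+ cells was −0.27 and −0.31. *Psmb10* over *Psmb7* in *Havcr2*+ cells was −0.86 in thinned cells, and between NK and CD8 T cells it reversed from 0.0093 to −0.092 without *Mki67*+ cells. The *Itgam*+ NK group of Kaede-red holds 76 cells, which limits the precision of its values.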
